A study of Homo sapiens with 12 samples.

Results

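A hairpin vector against IFI6 was compared with a control hairpin vector in TE-1 cells, an established human oesophageal cancer cell line. The genes described are the protein-coding ones of the deposited gene table that averaged 1 FPKM or more across all 12 libraries of the series, 10925 of 19771. FPKM counts the fragments of a gene scaled to its length and to the mapped fragments of its library. The lowest mean inside the limit was 1.00053 FPKM and the highest outside it 0.999645 FPKM. Each hairpin group had 3 libraries, called sh_IFI6 and sh_control here. The series also holds 3 libraries of cells given a vector that overexpresses IFI6 (OE_IFI6) and 3 of cells given its control vector (OE_control). All cells were grown in DMEM with serum, harvested 48 h after transfection and used whole. In such bulk RNA, fewer cells with the message and less message per cell cannot be told apart. The labels used here give neither the hairpin sequences nor the promoters of the vectors. They do not say that the 3 libraries of a group are separate cultures, so the p-values speak only of the spread among these libraries, which may be technical.

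IFI6 is a gene that cells switch on after type I interferon binds its receptor and the signal is passed to a transcription factor complex in the nucleus. It encodes a small hydrophobic membrane protein of the IFI27 family, which has been placed in mitochondria and in the endoplasmic reticulum and is known for limiting apoptosis. A short hairpin RNA is cut by DICER1 into a small RNA that guides an Argonaute protein to matching messages. The level of the targeted message is therefore the first readout of such a vector.

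The coding transcripts of IFI6 differ in where their first coding exon ends, and they are shown because IFI6-202, the shortest, carried most of the message that was measured. The coding part of that exon lies within chr1:27669221-27669314 (GRCh38, minus strand, from GENCODE release 29), where IFI6-202 begins its coding part at 27669314 and ends it at 27669245. Sequences run 5′ to 3′, and capitals mark the bases beyond the shortest form, 12 in IFI6-203 and 24 in IFI6-201.
IFI6-202: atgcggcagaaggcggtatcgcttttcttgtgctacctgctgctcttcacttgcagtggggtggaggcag
IFI6-203: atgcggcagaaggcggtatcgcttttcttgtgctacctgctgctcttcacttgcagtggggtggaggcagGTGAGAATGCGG
IFI6-201: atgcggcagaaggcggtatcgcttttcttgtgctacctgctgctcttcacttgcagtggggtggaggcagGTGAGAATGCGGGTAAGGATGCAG
The gene spans chr1:27666064-27672198 in the deposited table (ENSG00000126709).

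IFI6 was lower in every sh_IFI6 library than in every sh_control library. Its level was 15.1, 13.9 and 14.7 FPKM in sh_IFI6 and 24.9, 24.1 and 21.2 FPKM in sh_control. The means were 14.6 ± 0.646 FPKM (SD, n = 3) and 23.4 ± 1.97 FPKM (SD, n = 3), so 62.3% of the control level was left. The sh_IFI6 libraries were also below the OE_control libraries, which stood at 27.3, 17.9 and 28.8 FPKM. On the log2(FPKM + 1) scale used for every test, the difference was -0.65 (SE 0.17, 95% interval -1.01 to -0.28). The unadjusted limma p was 0.0024 and the p adjusted over all genes was 0.82, so IFI6 did not pass the test across genes. A two-sided exact permutation test of the FPKM values gave p = 0.1, the smallest that 3 libraries against 3 allow. Over 18 other settings the log2 difference ran from -0.71 to -0.60 and the adjusted p from 0.21 to 1.

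The same difference was seen in the main transcript. IFI6-202 held 91.7% of the gene's FPKM in sh_IFI6 and 90.1% in sh_control. It was at 14.3, 12.4 and 13.4 FPKM against 23.7, 19.4 and 20.1 FPKM, groups that do not overlap (log2 difference -0.61, SE 0.22, adjusted p = 0.87). IFI6-203 was at 0.823, 1.45 and 1.30 FPKM against 1.10, 1.42 and 1.10 FPKM, and its groups overlap (log2 difference -0.017, SE 0.25). IFI6-201 was at 0.0277, 0.000812 and 0 FPKM against 0.0691, 3.34 and 0 FPKM, so only sh_control replicate 2 held more than 1 FPKM of it. The hairpin effect was small beside that of the overexpression vector, whose libraries stood at 309, 268 and 358 FPKM. The knockdown effect minus the overexpression effect was -4.27 on the log2 scale (SE 0.24, adjusted p = 3.8e-06).

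**Figure D1:**
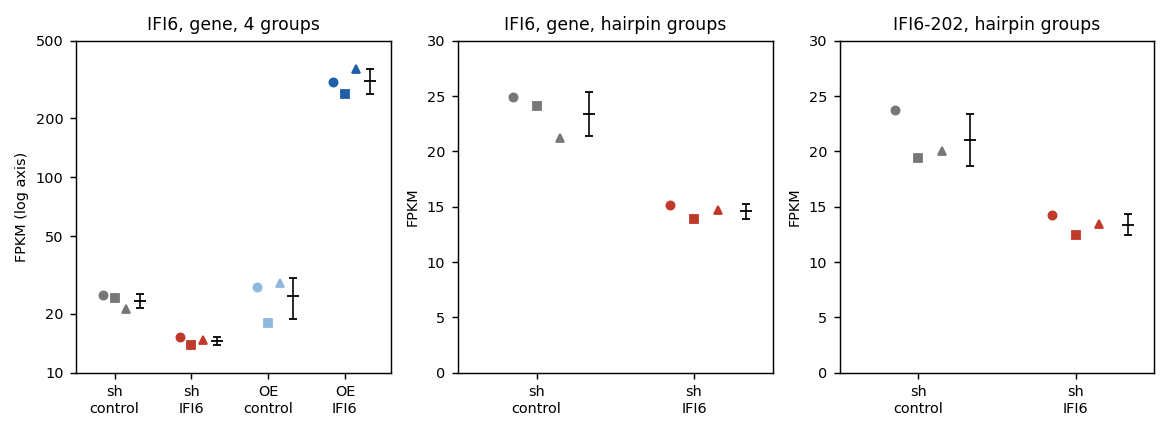
FPKM of IFI6 and of its transcript IFI6-202 by group, with circles, squares and triangles for replicates 1, 2 and 3 and a black bar for the mean ± SD of 3 libraries. The sh_IFI6 points of the gene lie at 13.9 to 15.1 FPKM, below the sh_control points at 21.2 to 24.9 FPKM.

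Log2 values correlated across genes at 0.975 to 0.978 within the hairpin groups and 0.969 to 0.977 between them, 0 pairs of libraries were identical, and small RNAs took 19.9% to 26.5% of the summed FPKM. On the first principal component of the 6, which held 26.5% of the variance, all sh_IFI6 libraries lay on one side, at scores of 3.1 to 24.1, and all sh_control libraries on the other, at -16 to -6.7. Replicate 2 of sh_IFI6 lay farthest out, and OE_control stood apart on the component of all 12 libraries. Read totals were not used here, so the absolute depth is unknown. Keratins KRT8 and KRT18 were abundant, at 725 to 1157 FPKM and 414 to 499 FPKM. Of the other markers listed for epithelium and its squamous form, KRT5, KRT6A, SOX2 and EPCAM were listed at 0 in all 6 libraries, KRT14, KRT19, TP63 and CDH1 reached at most 0.480 FPKM, and KRT17 was at 0.623 to 1.42 FPKM in sh_IFI6 and 0.590 to 0.790 FPKM in sh_control. Of 7 fibroblast markers 4 had a mean of at least 1 FPKM, and all 7 summed to 6.07 to 7.325 FPKM in sh_IFI6 and 6.95 to 8.575 FPKM in sh_control, with COL1A2 and PDGFRA at 0. Immune and endothelial markers summed to at most 0.209 FPKM, with PTPRC, CD3E and MS4A1 at 0.

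No gene passed the test across genes in either direction. Limma called 0 of 10925 genes in each direction at an adjusted p under 0.05 (0% called), and the smallest adjusted p was 0.27. At an unadjusted p under 0.05 there were 563 genes (5.15%), 277 higher in sh_IFI6 (2.54%) and 286 lower (2.62%). In 2084 genes (19.1%) the hairpin groups did not overlap, with 1034 higher (9.46%) and 1050 lower (9.61%). Single genes passed under other settings: AHR with library weights, YIPF6 in a fit of only the 6 hairpin libraries, PHLDA3 without sh_IFI6 replicate 1 and KLF10 without sh_IFI6 replicate 2. The overexpression comparison, with as many libraries and in the same fit, had 837 genes past the threshold (7.66%), and its groups did not overlap in 2544 genes (23.3%), 1475 higher (13.5%) and 1069 lower (9.78%) in OE_IFI6.

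The intervals show how large a difference could be hidden. The median SE of a log2 difference was 0.16 and the median half-width of the 95% interval was 0.34. The interval lay within -1 and 1 in 10208 genes (93.4%) and within -0.58 and 0.58 in 7232 (66.2%). The median log2 difference of all genes was 0.005, and the 5th and 95th percentiles were -0.37 and 0.32. An absolute difference of at least 1 was measured in 32 genes, and in 17 of them the groups did not overlap.

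**Figure D2:**
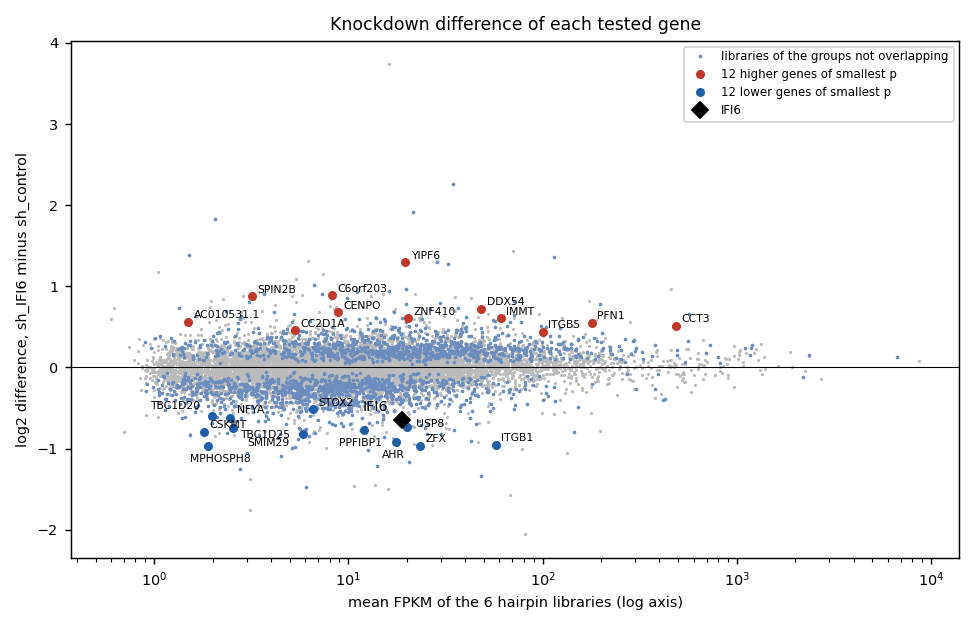
Log2 difference between sh_IFI6 and sh_control of each of the 10925 genes against its mean FPKM on a log axis, with genes whose groups do not overlap and the genes of smallest p marked. Most genes lie near 0 at every level, and 32 lie at or beyond an absolute difference of 1.

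The 12 genes per direction that follow are those of smallest p among genes without overlap. Among the lower ones, AHR and USP8 were lower in sh_IFI6 than in all 9 other libraries. AHR, the receptor that binds dioxins and switches on detoxifying enzymes (chr7:16916359-17346152), was at 11.6, 11.5 and 12.6 FPKM in sh_IFI6 and 25.5, 21.6 and 22.9 FPKM in sh_control. The overexpression libraries were higher, at 19.9 to 39.7 FPKM. Its level was 51.0% of control (log2 difference -0.91, SE 0.15, adjusted p = 0.27), and its adjusted p ran from 0.047 to 0.99 over 17 other settings. The difference in the gene's FPKM lay mostly in 1 form: AHR-205, which the annotation gives as non-coding, was at 0.126, 0.226 and 0.182 FPKM against 11.6, 9.97 and 11.96 FPKM and held 1.5% of the gene's FPKM in sh_IFI6 and 47.9% in sh_control. It was not among the transcripts tested. The form AHR-201 was at 10.8 to 11.95 FPKM in sh_IFI6 and 10.5 to 12.7 FPKM in sh_control, and its groups overlapped (log2 difference -0.023, SE 0.27, adjusted p = 1). How the FPKM was divided between the forms was not tested.

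USP8, a deubiquitinase of endosomal sorting, was at 13.3, 13.2 and 18.3 FPKM against 22.2, 25.5 and 28.0 FPKM, and the overexpression libraries were at 21.6 to 31.2 FPKM (log2 difference -0.73, SE 0.16, adjusted p = 0.72). ITGB1, the beta subunit of many integrins, was at 58.3, 31.3 and 30.6 FPKM against 79.9, 73.4 and 71.4 FPKM. Its groups do not overlap, but replicate 1 of sh_IFI6 was inside the overexpression range of 53.7 to 94.8 FPKM (log2 difference -0.95, SE 0.24, adjusted p = 0.82). The main form of ITGB1 changed between the sh_IFI6 libraries. ITGB1-202 was at 0.332, 24.8 and 0.283 FPKM in sh_IFI6 against 73.95, 66.8 and 66.6 FPKM in sh_control. ITGB1-201 was at 53.3, 0.163 and 26.8 FPKM against 0.542, 0.797 and 0.498 FPKM. How the FPKM was divided between these forms was not tested.

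For some of the other lower genes the overexpression libraries lay on both sides of the gap. MPHOSPH8, a reader of methylated histone H3 in the HUSH silencing complex, was at 0.726, 0.673 and 1.53 FPKM against 3.08, 2.83 and 2.51 FPKM (log2 difference -0.97, SE 0.19, adjusted p = 0.56). OE_control, at 0.447 to 0.737 FPKM, was near sh_IFI6, and OE_IFI6, at 1.82 to 3.34 FPKM, was near sh_control. TBC1D25, a GTPase-activating protein for Rab proteins, had the same arrangement: it was at 1.48, 1.97 and 1.54 FPKM against 3.19, 3.93 and 3.23 FPKM, with OE_control at 0.940 to 1.70 FPKM and OE_IFI6 at 2.55 to 4.17 FPKM. SMIM29, a small membrane protein, was at 3.79, 4.35 and 3.77 FPKM against 7.94, 8.61 and 6.78 FPKM (log2 difference -0.82, SE 0.15, adjusted p = 0.37), and here OE_IFI6 (3.28 to 5.13 FPKM) and OE_control (7.28 to 8.78 FPKM) were placed the other way round. NFYA, a subunit of the CCAAT-binding factor, and TBC1D20, another Rab regulator, were higher in sh_control than in all 9 other libraries. NFYA was at 1.71, 1.87 and 1.595 FPKM against 3.42, 2.92 and 3.26 FPKM and TBC1D20 at 0.912, 1.82 and 1.45 FPKM against 2.70, 2.44 and 2.58 FPKM. ZFX, an X-linked zinc finger transcription factor, was at 12.5, 14.1 and 19.0 FPKM against 42.8, 33.0 and 19.5 FPKM, with little distance between the nearest libraries of the groups. The remaining log2 differences were -0.77 for the liprin PPFIBP1, -0.80 for CSKMT, a methyltransferase of citrate synthase, and -0.52 for STOX2.

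Among the 12 higher genes, SPIN2B, DDX54, ITGB5, C6orf203 and CENPO were higher in sh_IFI6 than in all 9 other libraries. SPIN2B, a reader of methylated histones, was at 4.42, 4.32 and 4.49 FPKM against 2.31, 2.27 and 1.36 FPKM, and the overexpression libraries were at 2.08 to 2.67 FPKM (log2 difference 0.88, SE 0.14, adjusted p = 0.27). It has a near-identical copy, SPIN2A, so its value is uncertain. DDX54, an RNA helicase of the nucleolus, was at 60.8, 61.2 and 59.0 FPKM against 33.0, 32.4 and 43.9 FPKM, with the overexpression libraries at 32.4 to 44.7 FPKM (log2 difference 0.73, SE 0.13, adjusted p = 0.37). ITGB5, the integrin subunit that pairs with alpha V, was at 113, 122 and 112 FPKM against 85.1, 82.0 and 88.1 FPKM, above the overexpression libraries at 76.9 to 97.7 FPKM (log2 difference 0.44, SE 0.091, adjusted p = 0.69). The sh_IFI6 libraries of these 3 genes lie close together. C6orf203, a mitochondrial RNA-binding protein, was at 10.9, 11.2 and 11.03 FPKM against 5.19, 5.30 and 6.01 FPKM, and CENPO, a centromere protein, at 10.9, 9.36 and 13.3 FPKM against 6.15, 6.98 and 6.53 FPKM. The nearest overexpression library was close for C6orf203 (10.2 FPKM) and further off for CENPO (8.71 FPKM).

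In another 5 of the 12, ZNF410, IMMT, PFN1, CC2D1A and CCT3, the sh_control libraries were lower than all 9 others. PFN1, which binds actin monomers, was at 211, 229 and 199.5 FPKM against 128, 159 and 151 FPKM, and the overexpression libraries were at 188 to 252 FPKM. CCT3, a subunit of the chaperonin that folds actin and tubulin, was at 552, 607 and 560 FPKM against 402, 379 and 424 FPKM, with the overexpression libraries at 434 to 643 FPKM. In these 2 genes the sh_IFI6 libraries lay among or near the overexpression libraries. IMMT, which shapes the cristae of mitochondria, was at 76.0, 68.7 and 76.8 FPKM against 47.6, 48.3 and 48.2 FPKM, and the overexpression libraries ran from just above sh_control, at 48.9 to 72.3 FPKM. Its main form changed between the sh_IFI6 libraries. IMMT-206 was at 64.6, 0.2195 and 63.3 FPKM against 0.638, 0.417 and 0.477 FPKM. IMMT-204 was at 0.599, 60.4 and 0.708 FPKM against 36.3, 35.8 and 35.5 FPKM. How the FPKM was divided between the forms of IMMT was not tested. The zinc finger protein ZNF410 and the scaffold protein CC2D1A had log2 differences of 0.60 and 0.46. YIPF6, a Golgi membrane protein, was at 27.5, 28.0 and 29.3 FPKM against 12.3, 10.8 and 9.85 FPKM (log2 difference 1.30, SE 0.32, adjusted p = 0.82), and the overexpression libraries were spread over 11.3 to 35.0 FPKM. Its call in a fit of only the 6 hairpin libraries had an adjusted p of 0.05 after rounding, and the range over 17 other settings was 0.05 to 1. The last of the 12, AC010531.1, had a log2 difference of 0.57.

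Over all genes the sh_IFI6 libraries lay outside the range of the other 9 in 237 genes (2.17%), 179 above and 58 below. The shares were 0.915% for sh_control, 1.46% for OE_IFI6 and 13.2% for OE_control.

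**Figure D3:**
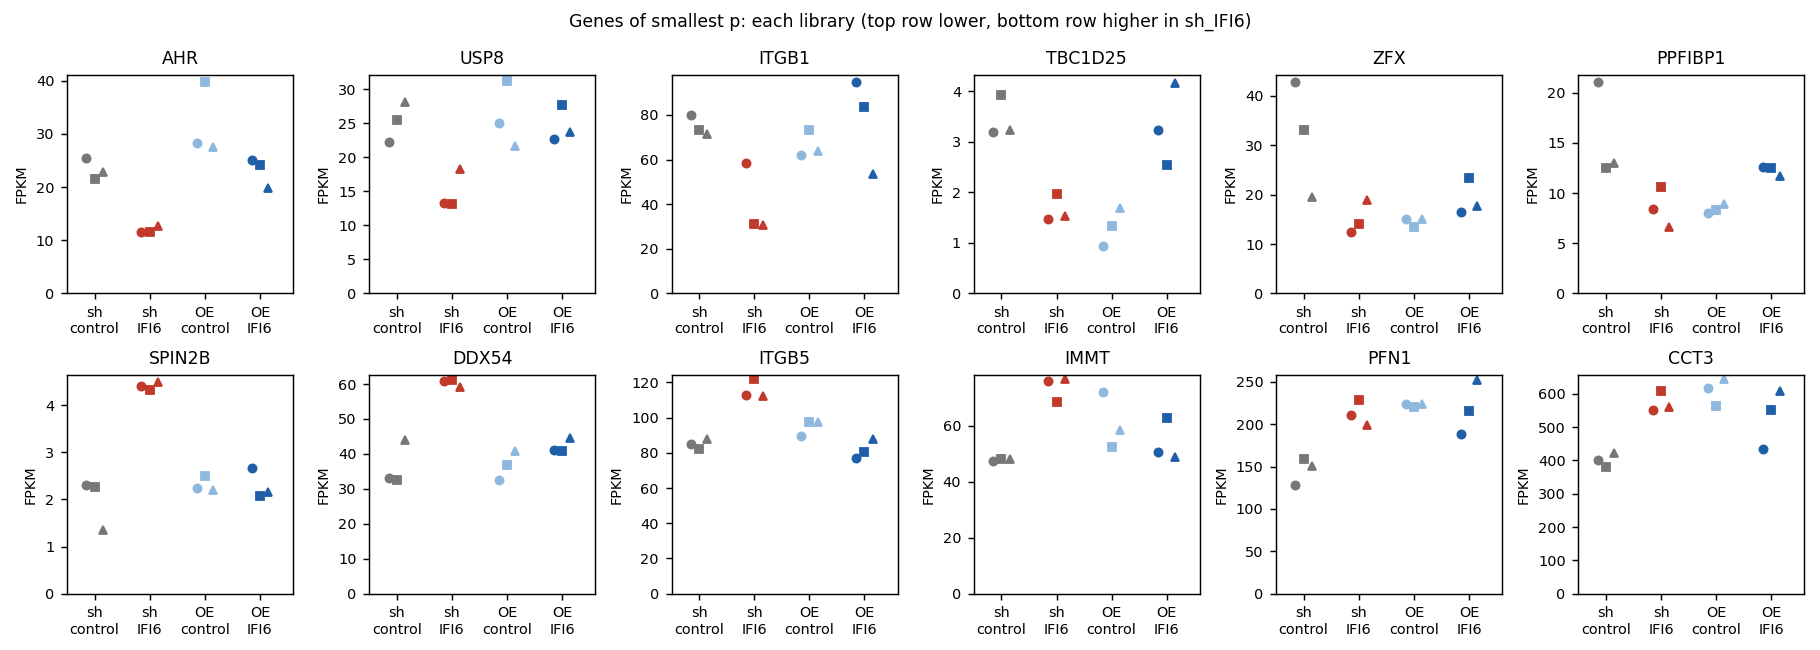
FPKM in each library of 6 of the 12 lower genes (top row) and 6 of the 12 higher genes (bottom row), with circles, squares and triangles for replicates 1, 2 and 3. The sh_IFI6 points of AHR, USP8, SPIN2B, DDX54 and ITGB5 lie outside the range of the other 9 libraries, and for IMMT, PFN1 and CCT3 the sh_control points do.

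Interferon-stimulated genes showed no common direction. Of 44 listed genes 28 were tested and none passed the test. Of these, 17 were higher and 11 lower, with a median log2 difference of 0.041 beside 0.005 for all genes, and 4 did not overlap (14.3%, beside 19.1% of all genes, the share to set each later list against). ADAR, which edits adenosine in double-stranded RNA, was at 77.7, 49.3 and 75.8 FPKM against 44.8, 44.4 and 42.6 FPKM (log2 difference 0.58, SE 0.27, adjusted p = 0.82). TAP1, a transporter of peptides for MHC class I, had a log2 difference of 0.25 (SE 0.12). ISG15, a ubiquitin-like modifier, was at 16.9, 17.4 and 15.6 FPKM against 16.7, 15.2 and 15.9 FPKM, IFIT1, which binds foreign RNA ends, at 3.42, 3.20 and 3.57 FPKM against 3.63, 3.24 and 3.38 FPKM, and OASL, an antiviral OAS-like protein, at 1.32, 1.88 and 2.33 FPKM against 1.46, 1.18 and 1.40 FPKM. The groups of these 3 genes overlap. IFI27, IFI27L2, IFIT3, MX1 and NOX4 were below the limit for testing, with hairpin group means of at most 0.683 FPKM. IFI27L1, the other tested member of the family, was at 9.31, 6.17 and 7.94 FPKM against 3.32, 7.04 and 7.92 FPKM, and its groups overlap.

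Interferon and nucleic acid sensing was split as well, with 13 of 25 tested genes higher, a median log2 difference of 0.011 and 4 without overlap (16%). IRF3, which switches on interferon genes after sensing, was at 38.4, 26.3 and 33.4 FPKM against 24.5, 21.7 and 24.9 FPKM (log2 difference 0.44, SE 0.17, adjusted p = 0.82). EIF2AK2, the kinase that double-stranded RNA activates, was at 10.3, 9.73 and 8.47 FPKM against 10.8, 13.9 and 12.5 FPKM (log2 difference -0.35, SE 0.17, adjusted p = 0.82). Of 13 tested genes that process hairpins and microRNAs 8 were lower. TNRC6B, a partner of Argonaute, was at 7.21, 4.20 and 5.39 FPKM against 7.84, 9.43 and 7.26 FPKM (log2 difference -0.49, SE 0.23, adjusted p = 0.82). In MHC class I presentation 13 of 18 genes were higher (median log2 difference 0.093), and 3 did not overlap (16.7%), among them the immunoproteasome subunit PSMB9, at 7.18, 7.73 and 7.41 FPKM against 5.42, 5.36 and 6.83 FPKM. Of 15 NF-kB targets and cytokines 2 did not overlap (13.3%).

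Heat shock proteins and co-chaperones had 12 genes higher and 12 lower of 24, with 9 not overlapping (37.5%), 7 of these higher. HSPA8, the constitutive HSP70 of the cytosol, was at 667, 491 and 957 FPKM against 435, 419.8 and 436 FPKM (log2 difference 0.66, SE 0.20, adjusted p = 0.82). Its sh_control libraries were lower than all 9 others, with OE_IFI6 at 483.5 to 619 FPKM and OE_control at 972 to 1324 FPKM. DNAJB6, a co-chaperone, was at 13.5, 16.4 and 16.3 FPKM against 21.2, 20.7 and 19.7 FPKM (log2 difference -0.39, SE 0.17, adjusted p = 0.82). DNAJB1, the inducible partner of HSP70, was at 32.9, 34.0 and 32.7 FPKM against 30.1, 32.4 and 32.2 FPKM, which do not overlap although the log2 difference was only 0.072 (SE 0.097). HSPA1A, the inducible HSP70 itself, was at 13.2, 11.9 and 10.1 FPKM against 9.58, 12.3 and 14.4 FPKM with overlap, and its near-identical copy HSPA1B makes the value uncertain. In the unfolded protein response 16 of 29 genes were higher and 3 did not overlap (10.3%). HSPA5, its main chaperone, was at 101, 96.9 and 94.8 FPKM against 70.2, 92.6 and 99.3 FPKM with overlap, and the co-chaperone DNAJB9 was at 3.23, 3.72 and 1.33 FPKM against 4.94, 4.28 and 4.85 FPKM (log2 difference -0.66, SE 0.28, adjusted p = 0.82).

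Of 31 ATF4 targets and genes of the integrated stress response 17 were higher, the median log2 difference was 0.057, and 5 did not overlap (16.1%). SLC1A5, a glutamine transporter, was at 51.7, 58.9 and 58.8 FPKM against 35.1, 38.2 and 47.4 FPKM (log2 difference 0.49, SE 0.13, adjusted p = 0.82). MTHFD2, of mitochondrial folate metabolism, had a log2 difference of 0.41 (SE 0.17). The regulators ATF4, at 252, 268 and 252 FPKM against 236, 256 and 229 FPKM, and DDIT3, at 5.20, 6.61 and 5.65 FPKM against 5.25, 4.38 and 4.79 FPKM, overlap between the groups, and ATF3 had a log2 difference of 0.43 with an SE of 0.62. Among 21 NRF2 targets 3 did not overlap (14.3%). PGD, of the pentose phosphate pathway, was at 67.5, 61.9 and 74.4 FPKM against 50.2, 49.6 and 37.0 FPKM (log2 difference 0.57, SE 0.22, adjusted p = 0.82), and HMOX1, which breaks down heme, was at 9.18, 10.95 and 9.61 FPKM against 8.79, 10.3 and 9.67 FPKM with overlap. Among 22 antioxidant enzymes 5 did not overlap (22.7%). GPX8, a peroxidase of the endoplasmic reticulum, was at 6.44, 5.27 and 5.86 FPKM against 11.8, 10.1 and 8.22 FPKM (log2 difference -0.68, SE 0.20, adjusted p = 0.82).

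Nuclear genes of the respiratory chain were 34 higher and 27 lower of 61, with a median log2 difference of 0.021 and 13 without overlap (21.3%). NDUFS5 and NDUFB4, both of complex I, had log2 differences of 0.42 (SE 0.14) and -0.45 (SE 0.19). Of 13 listed genes of the mitochondrial genome only 9 reached the limit for testing, and 6 of the 9 were lower. The median log2 difference of the 9 was -0.29, from -0.39 to -0.17 over 17 other settings. Of the 9 tested 5 did not overlap (55.6%), 4 lower and 1 higher. MT-CO3, of complex IV, was at 46.7, 22.0 and 22.6 FPKM against 48.6, 68.6 and 48.0 FPKM (log2 difference -0.90, SE 0.32, adjusted p = 0.82). MT-CO2, of the same complex, was at 7.47, 5.72 and 6.65 FPKM against 9.23, 8.74 and 8.44 FPKM (log2 difference -0.37, SE 0.14, adjusted p = 0.82). The overexpression libraries were at 14.5 to 37.9 FPKM for MT-CO3 and 4.99 to 7.24 FPKM for MT-CO2. In both genes the sh_control libraries were higher than all 9 others. MT-ND4L, of complex I, went the other way at 5.79, 0.160 and 6.11 FPKM against 0, 0.139 and 0.108 FPKM, a difference carried by replicates 1 and 3 of sh_IFI6. It was at 3.61, 5.04 and 3.66 FPKM in OE_IFI6 and 4.44, 0.0997 and 0 FPKM in OE_control. Of 19 genes of mitochondrial calcium transport 6 did not overlap (31.6%), 3 in each direction. SLC8B1, the sodium and calcium exchanger of mitochondria, was at 10.9, 13.1 and 11.3 FPKM against 8.08, 10.8 and 8.11 FPKM.

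Of 32 apoptosis regulators 14 were higher and 18 lower, and 6 did not overlap (18.8%), 5 of them higher. CASP9, the initiator caspase of the mitochondrial route, was at 21.2, 22.3 and 20.6 FPKM against 17.5, 11.3 and 17.1 FPKM (log2 difference 0.48, SE 0.20, adjusted p = 0.82). FADD, an adaptor of death receptors, had a log2 difference of 0.21 (SE 0.11). Among 27 p53 targets 5 did not overlap (18.5%). PHLDA3, a p53 target that restrains AKT, was at 7.66, 19.5 and 18.3 FPKM against 5.88, 7.40 and 7.55 FPKM. Replicate 1 of sh_IFI6 was near the sh_control libraries, and without it the log2 difference was 1.33 (adjusted p = 0.016, range 0.016 to 1 over 17 settings). PHLDA3 was at 15.16 to 18.67 FPKM in OE_IFI6 and 17.36 to 19.15 FPKM in OE_control. The sh_control libraries were thus lower than all others of the series. Replicates 2 and 3 of sh_IFI6 lay among or near the overexpression libraries. CDKN1A, the p53-driven inhibitor of cell division, was at 36.8, 72.1 and 66.0 FPKM against 54.7, 60.1 and 59.0 FPKM and overlaps.

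In G1/S and DNA replication 32 of 47 genes were higher and 10 did not overlap (21.3%). TYMS, which makes thymidylate, was at 139, 98.7 and 131 FPKM against 86.7, 81.4 and 89.4 FPKM (log2 difference 0.50, SE 0.14, adjusted p = 0.82). In mitosis and G2/M 23 of 40 were lower and 11 did not overlap (27.5%), 7 of them lower. ECT2, which drives cytokinesis, and CKS2, a partner of cyclin-dependent kinases, had log2 differences of -0.34 and -0.25. The proliferation marker MKI67, at 8.63, 8.16 and 9.24 FPKM against 8.02, 10.9 and 8.90 FPKM, and cyclin D1 (CCND1), at 13.1, 13.4 and 13.7 FPKM against 10.5, 15.7 and 13.6 FPKM, overlap between the groups. Of 52 replication-dependent histones 2 did not overlap (3.85%).

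Of 76 ribosomal protein genes 43 were lower and 7 did not overlap (9.21%). RPS24, of the small subunit, was at 47.5, 43.2 and 47.2 FPKM against 62.2, 73.4 and 61.1 FPKM (log2 difference -0.50, SE 0.18, adjusted p = 0.82). Nucleolar factors that build the ribosome had 10 of 40 without overlap (25%), 7 higher. BOP1, of large subunit assembly, was at 73.0, 77.2 and 76.1 FPKM against 54.5, 55.4 and 61.8 FPKM (log2 difference 0.39, SE 0.11, adjusted p = 0.82), and RRP9 and NOP56, of the nucleolar RNA-protein particles, had log2 differences of 0.44 and 0.39. Of 31 proteasome subunits 23 were higher, with a median log2 difference of 0.094 and 6 without overlap (19.4%). Of 37 autophagy and lysosome genes 25 were higher and 8 did not overlap (21.6%). MAP1LC3B, which coats autophagosomes, was among the lower ones at 10.6, 11.8 and 9.25 FPKM against 17.2, 21.8 and 13.8 FPKM (log2 difference -0.67, SE 0.20, adjusted p = 0.82).

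In glycolysis and hypoxia 24 of 34 genes were higher and 6 did not overlap (17.6%). LDHA, which makes lactate, was at 1318, 1217 and 1318 FPKM against 1127, 943 and 1205 FPKM, and HK2, the first enzyme of glycolysis, at 20.1, 17.3 and 15.1 FPKM against 26.9, 21.0 and 23.9 FPKM, in opposite directions. In cholesterol and fatty acid synthesis 6 of 34 did not overlap (17.6%), 5 of them lower. FADS2, a fatty acid desaturase, was higher at 15.7, 18.6 and 16.8 FPKM against 9.58, 13.01 and 10.01 FPKM (log2 difference 0.61, SE 0.20, adjusted p = 0.82). Of 35 immediate early genes 3 did not overlap (8.57%). KLF10, a transcription factor of that class, was at 8.44, 21.9 and 7.49 FPKM against 21.7, 20.2 and 22.1 FPKM, with replicate 2 of sh_IFI6 beside the controls. Without that library its log2 difference was -1.32 (adjusted p = 0.032, range 0.032 to 0.99 over 17 settings).

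Of 17 tested epithelial junction genes 11 were higher and 6 lower, with a median log2 difference of 0.020. In 6 the groups did not overlap (35.3%), 3 in each direction. PKP3 was higher with overlap, at 41.3, 44.3 and 35.2 FPKM against 35.8, 32.9 and 29.8 FPKM (log2 difference 0.28, SE 0.11, adjusted p = 0.82). DSP, the plaque protein of desmosomes, was at 38.7, 31.4 and 29.2 FPKM against 45.2, 45.3 and 45.4 FPKM (log2 difference -0.45, SE 0.14, adjusted p = 0.82). TJP1, a scaffold of tight junctions, was at 7.04, 5.99 and 6.77 FPKM against 9.14, 9.62 and 9.15 FPKM (log2 difference -0.44, SE 0.14, adjusted p = 0.82). DSP was at 40.8 to 56.6 FPKM in OE_IFI6 and 28.0 to 30.1 FPKM in OE_control, and TJP1 at 7.295 to 10.2 FPKM and 3.42 to 4.84 FPKM. In both genes OE_IFI6 was thus higher than OE_control without overlap. For TJP1 the OE_control libraries were lower than all others of the series, and for DSP they overlapped sh_IFI6. Of 12 tested squamous and keratinocyte genes 9 were higher and 5 did not overlap (41.7%). KLF5, an epithelial transcription factor, was lower with a log2 difference of -0.25, and TRIM29 was higher at 60.6, 64.2 and 63.4 FPKM against 50.9, 56.0 and 52.9 FPKM. Of 20 mesenchymal and migration genes 2 did not overlap (10%), both lower. No member of any list passed the test across genes.

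**Figure D4:**
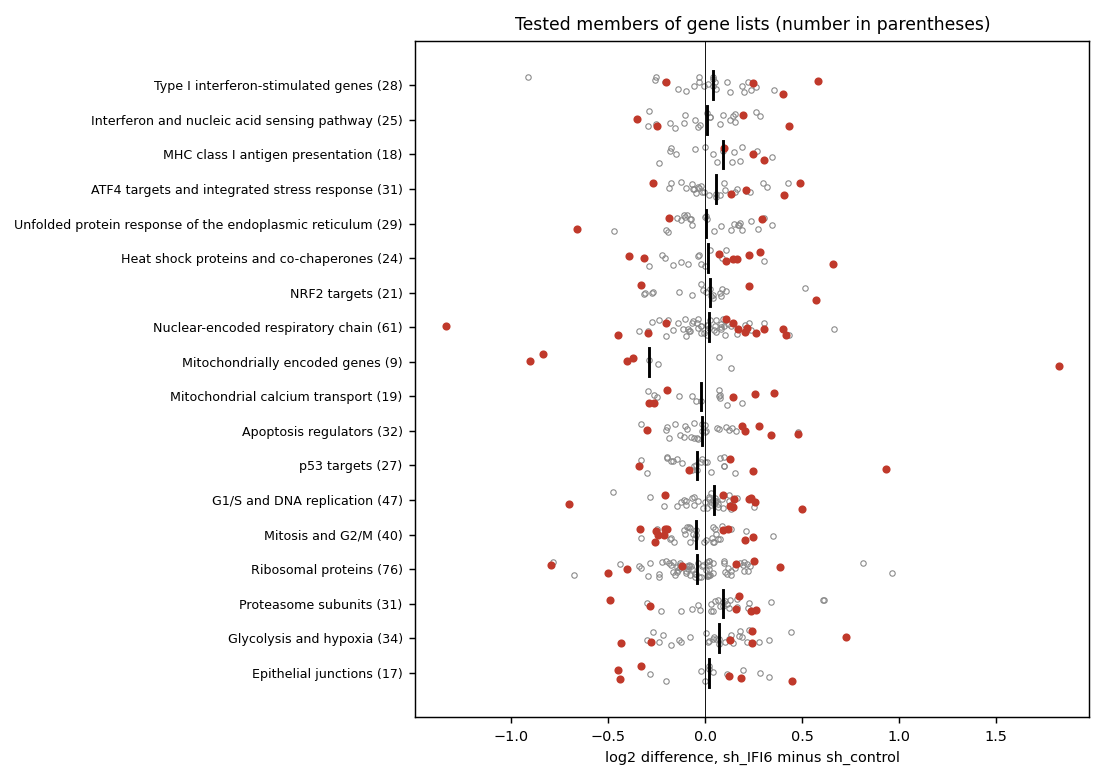
Log2 difference between sh_IFI6 and sh_control of each tested member of the gene lists, with red points for members whose groups do not overlap and a black line at each list's median. Most medians lie near 0, and that of the 9 tested mitochondrially encoded genes, of 13 listed, is -0.29.

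At the level of single transcripts 4 passed the test (0.0235%). Of 17030 tested transcripts 3 rose (0.0176%) and 1 fell (0.00587%), 881 (5.17%) had an unadjusted p under 0.05, and 2592 (15.2%) had groups that did not overlap, 1298 higher (7.62%) and 1294 lower (7.6%). MAPK14-204, of the p38 alpha kinase gene (chr6:36027782-36108670), fell (log2 difference -2.94, SE 0.19, adjusted p = 0.00058). It was at 6.58, 6.57 and 6.95 FPKM in sh_control, and it was listed at 0 in all sh_IFI6 libraries and at no more than 0.0626 FPKM in the overexpression libraries. The 3 sh_control libraries were thus the only ones of the 12 above 1 FPKM for this form. It reached the limit of a mean of 1 FPKM only through sh_control, the group where it was high. Over all transcripts tested, sh_IFI6 lay outside the range of the other 9 libraries in 1.51%, sh_control in 0.969%, OE_IFI6 in 1.29% and OE_control in 7.42%. MAPK14-204 passed with any 1 library left out, and its adjusted p was 0.11 with a pseudocount of 0.1 FPKM. The total of the gene was 23.6 FPKM in sh_IFI6 and 17.4 FPKM in sh_control.

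PPP1CC-202, which rose, was the form in which sh_IFI6 stood apart from the series. PPP1CC encodes a catalytic subunit of protein phosphatase 1. The transcript was at 7.13, 8.33 and 5.33 FPKM against 0.885, 0.890 and 0.795 FPKM, and at 0.366 to 1.33 FPKM in the overexpression libraries (log2 difference 2.08, SE 0.22, adjusted p = 0.032). It passed with 4 of 6 libraries left out in turn, and its adjusted p over all settings ran from 0.013 to 0.23. Its group means were 6.93 FPKM in sh_IFI6, 0.857 in sh_control, 0.813 in OE_IFI6 and 1.08 in OE_control. PPP1CC-202 thus reached the limit of a mean of 1 FPKM only through sh_IFI6, the group where it was high. It held 9.3% of the gene's FPKM in sh_IFI6 and 1.2% in sh_control, while the gene totalled 73.9 and 69.6 FPKM. The coding ends of the forms are shown because the proteins of these forms part there (chr12:110720137-110721165, GRCh38, minus strand). The first 61 bases are shared, and capitals mark the bases after them.
PPP1CC-201: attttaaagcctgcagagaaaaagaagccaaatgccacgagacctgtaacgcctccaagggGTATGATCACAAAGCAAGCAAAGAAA
PPP1CC-202: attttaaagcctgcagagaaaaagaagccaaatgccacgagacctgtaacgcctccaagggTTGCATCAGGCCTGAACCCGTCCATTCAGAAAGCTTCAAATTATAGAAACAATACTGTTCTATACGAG
ZFAND6-201, of a zinc finger protein gene, was also high in sh_IFI6 alone, at 6.88, 7.53 and 10.2 FPKM against 2.21, 3.07 and 2.09 FPKM, with the overexpression libraries at 2.30 to 4.11 FPKM and an adjusted p of 0.25.

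CCT3 showed the largest exchange between transcripts among the genes of the named transcripts, with 81.5% of its FPKM on other forms. CCT3-211 rose and was at 15.03, 10.6 and 10.8 FPKM against 0.437, 0.956 and 1.75 FPKM with the overexpression libraries at 7.46 to 15.96 FPKM (log2 difference 2.71, SE 0.31, adjusted p = 0.043). Its adjusted p ran from 0.017 to 0.23 over the other settings. The main form, CCT3-204, was at 409, 464 and 434 FPKM against 0, 0 and 36.1 FPKM, and the overexpression libraries were at 333 to 460.1 FPKM. Its log2 difference was 7.03 (SE 1.12, adjusted p = 0.25), and it passed in 1 of 6 fits with a library left out and in 0 of 11 other settings. That library was sh_control replicate 3, the only sh_control library above 0, and the adjusted p ran from 8.2e-09 without it to 0.5. In sh_control other forms carried the gene: CCT3-201 was at 394, 64.9 and 22.8 FPKM and CCT3-206 at 0.0997, 296 and 292 FPKM. The division of FPKM among overlapping forms was not tested. CCT3-204 lacks 2 exons of CCT3-201, with 114 coding bases together, which are shown because they set these forms apart (chr1:156334868-156334918 and chr1:156334713-156334775, GRCh38, minus strand). In the junction that skips them, the downstream exon is in capitals.
First skipped exon: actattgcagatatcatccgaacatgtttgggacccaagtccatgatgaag
Second skipped exon: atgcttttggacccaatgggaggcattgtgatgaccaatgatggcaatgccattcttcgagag
CCT3-204 junction: atcaatgctgccaagATTCAAGTCCAGCAT

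TSPAN9-206, of a tetraspanin gene, was the last form that rose. It was at 3.12, 4.76 and 3.46 FPKM against 0.549, 0.00302 and 0 FPKM (log2 difference 2.03, SE 0.25, adjusted p = 0.046), and the overexpression libraries, at 1.97 to 4.08 FPKM, were on the side of sh_IFI6. It passed with 1 of 6 libraries left out in turn, and its adjusted p ran from 0.018 to 0.23. PRKACB, a catalytic subunit of protein kinase A, differed between the groups in which first exon was used, without passing. PRKACB-206 was at 1.36, 0.781 and 2.26 FPKM against 10.6, 11.7 and 12.1 FPKM (log2 difference -2.38, SE 0.32, adjusted p = 0.092) and PRKACB-204 at 9.31, 8.52 and 8.60 FPKM against 0.0600, 1.63 and 1.72 FPKM. OE_IFI6 was near sh_IFI6 for PRKACB-206, at 1.23 to 3.39 FPKM, and OE_control was higher, at 5.25 to 10.4 FPKM. The coding parts of the first exons lie at chr1:84144362-84144548 and chr1:84078326-84078371 (GRCh38, plus strand) and are shown because the proteins begin there, with the start codon in capitals.
PRKACB-204: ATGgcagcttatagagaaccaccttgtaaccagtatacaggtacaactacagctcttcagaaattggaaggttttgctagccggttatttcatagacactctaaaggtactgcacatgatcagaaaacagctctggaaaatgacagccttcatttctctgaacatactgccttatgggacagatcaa
PRKACB-206: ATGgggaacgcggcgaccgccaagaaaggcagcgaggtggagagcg

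**Figure D5:**
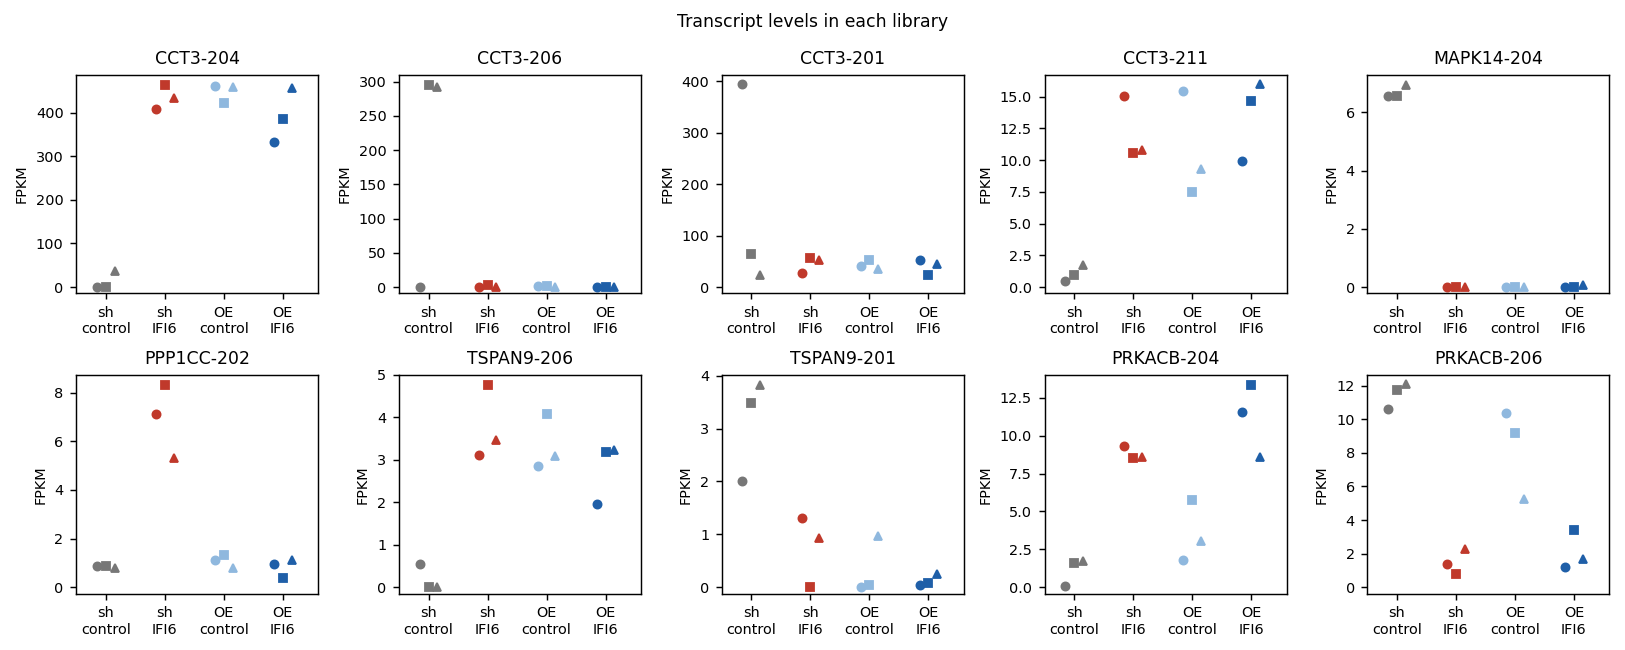
FPKM of 10 transcripts in each library, with circles, squares and triangles for replicates 1, 2 and 3. MAPK14-204 is present in sh_control, at 6.57 to 6.95 FPKM, PPP1CC-202 is high in sh_IFI6, at 5.33 to 8.33 FPKM, and CCT3-204 and TSPAN9-206 are low in sh_control.

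The knockdown and overexpression groups share no library, and the difference between the effects was tested. It passed in 294 genes (2.69%), with the knockdown effect above in 165 (1.51%) and below in 129 (1.18%). In 237 of the 294 the knockdown log2 difference was under 0.3 in size, in 280 the overexpression effect passed by itself, and in 258 the OE_control libraries lay outside the range of the other 9. Without overlap in either comparison, 161 genes (1.47%) were lower in sh_IFI6 and higher in OE_IFI6, and 141 (1.29%) the reverse, while 135 genes (1.24%) were higher in both comparisons and 47 (0.43%) lower in both. CUL4A, a scaffold of ubiquitin ligases, was of the first kind at 51.5, 51.0 and 49.2 FPKM against 53.6, 52.9 and 55.4 FPKM, with OE_IFI6 at 49.2 to 52.1 FPKM and OE_control at 22.8 to 25.7 FPKM. For MPHOSPH8, whose values are given above, the difference of effects was -2.16 (SE 0.27, adjusted p = 0.0019). MICB, a ligand of the NKG2D receptor, was of the second kind at 30.5, 36.0 and 35.6 FPKM against 26.4, 29.6 and 27.5 FPKM, with OE_IFI6 at 24.3 to 32.4 FPKM and OE_control at 84.3 to 86.1 FPKM. In CUL4A and MICB the OE_control libraries were the ones furthest from the rest.

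Some of the largest differences rested on single libraries. These genes were picked after their values were seen, from the 32 with an absolute log2 difference of at least 1. MAGEA6, a cancer-testis antigen with near-identical copies, had the lowest value of all genes (log2 difference -2.05, SE 1.30, adjusted p = 0.82) and was at 95.3, 0.0586 and 113 FPKM against 87.7, 96.2 and 95.5 FPKM. IMP3, a nucleolar protein, was at 84.2, 1.72 and 83.2 FPKM against 81.2, 79.5 and 77.1 FPKM, so that replicate 2 of sh_IFI6 alone was low. AP000350.4 had the highest value, 3.74 (SE 1.95), and was at 56.4, 40.3 and 0 FPKM against 0, 0 and 0 FPKM. It was at 50.7, 0 and 53.3 FPKM in OE_IFI6 and 63.6, 55.0 and 0 FPKM in OE_control. HMGN2, which binds nucleosomes, did not overlap, at 49.3, 51.3 and 71.4 FPKM against 8.94, 16.98 and 8.58 FPKM (log2 difference 2.27, SE 0.68, adjusted p = 0.82), but the overexpression libraries ran across the gap, at 8.39 to 53.7 FPKM. SDHD, a subunit of complex II, was at 6.34, 44.0 and 47.9 FPKM against 69.0, 53.9 and 66.6 FPKM and did not overlap, with replicate 1 of sh_IFI6 far below the others.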

How the data were processed

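Total RNA from 12 TE-1 libraries, 3 in each of 4 groups taken from the sample titles, was sequenced on Illumina after lncRNA library preparation. The authors deposited FPKM per gene and per transcript. The submitters' processing notes name HISAT2, StringTie, Cuffdiff and edgeR without versions or roles; the build, annotation release and strand setting behind the tables are not given in these sources. Of 259360 transcript identifiers 205999 are in GENCODE release 29 (GRCh38), 93.3% of them with the same bounds, and sequences were read from that release; the bounds of IFI6-202 and CCT3-201 differ at their ends.

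Depth could be compared only roughly, through the step spacing that best fitted the low values. That spacing was 29.8 to 37.5 steps per kilobase at 1 FPKM in the hairpin libraries, and the largest step number was 1.26 times the smallest. Only 10.7% to 21.4% of low values came within 0.01 of a whole multiple, too few to turn FPKM back into reads, so no test on counts was made. The values were transformed to log2(FPKM + 1) and fitted with limma 3.58.1 in R 4.3.3 (with version 1.17.8 of the data.table package for input). The model had a mean for each of the 4 groups over all 12 libraries, which leaves 8 residual degrees of freedom, and a trended prior. Features needed a mean of at least 1 FPKM, and p-values were adjusted by Benjamini-Hochberg over all tested features with a threshold of 0.05. Groups are said not to overlap when every library of one lies above every library of the other.

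Named genes are IFI6, the 12 non-overlapping genes of smallest limma p in each direction, up to 3 members of smallest p in each gene list, up to 5 genes for each opposed pattern with overexpression and 20 genes named whatever their values; named transcripts are those of IFI6 and up to 5 of smallest p in each direction. A few results under this rule are not reported here. Genes and transcripts outside this rule were named after their values were seen. The members and lists were chosen with earlier results of these data known. Alternatives changed the pseudocount, filter, normalization, prior, library weights, libraries fitted and replicate block, and left out each hairpin library in turn. Genes with near-identical copies (SPIN2B, HSPA1A, MAGEA6, histones) have uncertain values. Noncoding genes were not described for themselves. They entered the small RNA share of the summed FPKM (RPPH1, RN7SK, RN7SL1, RN7SL2 and RMRP), the depth comparison and an alternative fit over all annotated genes.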

Additional observations from a re-analysis of the deposited data

Results flagged for a closer look

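In 37 of 143 named genes the knockdown effect (sh_IFI6 minus sh_control) and the overexpression effect (OE_IFI6 minus OE_control) differed in limma's test of that difference at an adjusted p under 0.05. Some of the 143 were named for opposed knockdown and overexpression effects, ranked by the p of this same test. Others were named for a small knockdown p. The share of 37 in 143 therefore cannot be read as enrichment. Over all tested genes the difference passed in 294 of 10925 (2.69%). The values that follow are the knockdown effect minus the overexpression effect on the log2 scale. In 18 of the 37 the knockdown effect was under 0.3 in size, and in 32 the overexpression effect passed by itself. OE_control is the group that stands apart from the rest of the series, and its part in these differences was not tested. For IFI6 itself the difference was -4.27.

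Among heat shock genes it was 3.14 for DNAJB1, 3.87 for HSPA1A, 1.73 for HSPA8 and 0.79 for FKBP4. Among genes of the unfolded protein response and ATF4 targets it was 1.91 for HSPA5, 1.23 for CALR, 2.23 for DDIT3, 1.84 for ASNS and 0.997 for SLC1A5. Interferon, NF-kB and immune genes had 1.48 for ISG15, 2.13 for OASL, 1.87 for MICB, 0.87 for RELB, 1.22 for TNFSF9 and 1.22 for IER3. The autophagy genes, a glucose transporter and an ectonucleotidase had 0.73 for ATG101, 0.83 for ATG7, 1.33 for SLC2A3 and 1.46 for NT5E. In all of these the knockdown effect lay above the overexpression effect.

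Of the genes of smallest knockdown p, the higher ones had 1.54 for AC010531.1, 0.86 for CC2D1A, 0.72 for CCT3, 0.65 for ITGB5, 0.89 for SPIN2B and 1.29 for ZNF410. The lower ones had -2.16 for MPHOSPH8, -1.63 for TBC1D25, -1.46 for CSKMT and -1.27 for PPFIBP1. The junction genes had -1.10 for DSP and -1.38 for TJP1. Other genes with the knockdown effect below the overexpression effect had -1.14 for CUL4A, -1.54 for MYLK3, -1.52 for PEG10, -1.67 for RBMXL1 and -1.23 for ZMAT3. For SPIN2B the overexpression effect was -0.01, so there the difference was nearly all on the knockdown side. Its value is uncertain because of its near-identical copy SPIN2A. Its forms also differed among the sh_IFI6 libraries, with SPIN2B-202 at 3.16, 0 and 0 FPKM and SPIN2B-201 at 0, 2.40 and 3.73 FPKM.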

How the results depend on the processing

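Of 18 alternatives, 6 left out a hairpin library. IFI6 stayed lower in all of them without passing, at -0.71 to -0.60 with a library left out. Gene calls appeared singly: 1 fell with library weights (AHR), 1 rose in the fit of only the 6 hairpin libraries (YIPF6), and leaving out a library gave 0 to 1 rising and 0 to 1 falling. Transcript calls moved more: 0 rose and 0 fell at a pseudocount of 0.1 FPKM or a minimum mean of 5 FPKM, 12 rose and 8 fell with no filter, 2 fell with library weights, and 16 rose and 17 fell with only the 6 hairpin libraries. Leaving out a library gave 4 to 9 rising and 3 to 8 falling transcripts, 123 to 174 genes whose effects differed, and 1346 to 1955 higher and 1392 to 1942 lower genes without overlap. The fewer libraries compared make overlap rarer. For the other moves the cause was not tested.

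Replicate numbers did not pair the hairpin libraries: same-numbered libraries correlated at -0.04, -0.01 and -0.03 after the group means were removed. With a replicate block 0 genes passed (smallest adjusted p 0.49), IFI6 was at -0.65 (adjusted p = 0.69), 250 genes differed in effect, and 0 transcripts rose and 1 fell.

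Direction reversed in 16 of 2382 named gene values and 2 of 211 named transcript values, mostly close to 0. Under quantile normalization CYBA was at -0.002 and IFIT1 at 0.028. The other reversals came from leaving out 1 hairpin library, where the log2 difference ran from -0.18 to 0.042 for NOXA1, -0.24 to 0.003 for NOXO1, -0.43 to 0.006 for AGR2, -0.041 to 0.14 for CSF1R, -0.036 to 0.028 for IFIT1, -0.17 to 0.033 for MKI67, -0.11 to 0.15 for CCND1, -0.025 to 0.091 for HMOX1, -0.18 to 0.097 for HSPA1A, -0.23 to 0.25 for CDKN1A and -0.10 to 0.11 for IFI6-203. With 3 libraries a group and no read counts, differences in genes near 1 FPKM are the least certain.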
